A study of Mus musculus with 6 samples.

Results

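Cytosolic ribosomal proteins are the protein components of the ribosome that translates nuclear-encoded mRNA, and their genes were read here in interscapular brown fat, the heat-producing depot between the shoulder blades. Members were taken by symbol: protein-coding genes whose name starts with Rpl or Rps followed by a digit, together with Rplp0, Rplp1, Rplp2 and Rpsa. The table held 86 such genes among 54385 rows, 34 of the small subunit (Rps) and 52 of the large subunit (Rpl). The rule left out 279 pseudogene rows, 6 protein-coding entries named as pseudogenes and 10 Rps6k kinases. Of the 86, 85 passed the filter on low counts, and Rpl10l had no count in any library. Some genes matched by symbol are not structural ribosomal proteins: Rps19bp1 encodes a protein that binds ribosomal protein S19, and Rpl7l1 encodes a nucleolar relative of ribosomal protein L7.

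The Ad-cKO group was 3 libraries from C57BL/6N mice with both Adcy3 alleles floxed and 1 Adipoq-Cre allele (Adcy3-FL/FL/Adipoq-wt/cre), in which Cre is made in adipocytes. The WT group was 3 libraries from C57BL/6N mice that carried the same floxed alleles and no Cre (Adcy3-FL/FL/Adipoq-wt/wt). All mice had eaten chow for 20 weeks and spent 24 hours at 5 °C before the tissue was taken. Adcy3 encodes adenylyl cyclase 3, which makes cyclic AMP. Other cells of the depot are not targeted by this Cre, and in whole tissue fewer cells of a type and less RNA per cell cannot be told apart.

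A ribosome holds 1 copy of nearly every ribosomal protein, with the acidic stalk proteins as the known exception, so cells make these proteins in matched amounts. Their mRNAs are short and abundant, and most begin with a terminal oligopyrimidine tract through which mTOR and Larp1 adjust their translation. Many of the genes have left intronless copies elsewhere in the genome, some of them identical to the parent across the coding sequence. A few have paralogues used in particular tissues, such as Rpl3l in striated muscle and Rpl10l and Rpl39l in testis.

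Total estimated counts ranged from 13956786 to 17538044 per library. Adcy3 stood at 21.9, 30.3 and 24.0 counts per 1000000 of the TMM-scaled library size (CPM) in Ad-cKO libraries 1 to 3, against 134, 169 and 158 CPM in WT libraries 1 to 3 (edgeR log2 fold change -2.60, adjusted p = 0.00146). All 16 listed brown adipocyte markers were detected in every library, and Ucp1, the uncoupling protein that defines brown fat, stood at 7148, 7098 and 7579 CPM in Ad-cKO libraries against 5389, 5997 and 5839 CPM in WT libraries. Skeletal muscle markers were present too: their 25 genes summed to 10947, 798 and 145 CPM in Ad-cKO libraries and to 23196, 21155 and 16961 CPM in WT libraries. On the first principal component of log2 CPM, which held 58.3% of the variance, Ad-cKO libraries 2 and 3 stood apart (54.0 and 80.9) while Ad-cKO library 1 (-20.7) lay nearer the WT libraries (-43.8, -35.6 and -34.8). On the second, with 16.5%, Ad-cKO library 1 stood apart from the other 5.

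The coding sequences that matter most for reading the values are shown first, from GENCODE vM21 on GRCm38. Rps27, on chromosome 3 (90212522 to 90213651, minus strand), and Rps27rt, a single-exon gene on chromosome 9 (114982366 to 114982739, minus strand), have one and the same coding sequence of 255 bases, with 0 differing positions, so a read that lies within it cannot be assigned to either.
Rps27 and Rps27rt: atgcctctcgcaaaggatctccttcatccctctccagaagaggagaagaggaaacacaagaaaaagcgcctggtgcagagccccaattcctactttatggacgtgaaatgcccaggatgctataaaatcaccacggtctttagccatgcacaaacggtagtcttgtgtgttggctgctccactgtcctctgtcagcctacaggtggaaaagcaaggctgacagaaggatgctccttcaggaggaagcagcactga
Rpl3l, on chromosome 17 (24727820 to 24736143, plus strand), and Rpl3, on chromosome 15 (80077791 to 80091868, minus strand), are 73.3% identical over their coding sequences, with 328 differing or gapped positions. The first 120 coding bases are given with the 31 positions that differ in capitals.
Rpl3l: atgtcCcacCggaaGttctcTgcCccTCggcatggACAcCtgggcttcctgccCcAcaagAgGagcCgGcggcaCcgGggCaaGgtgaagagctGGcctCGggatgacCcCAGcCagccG
Rpl3: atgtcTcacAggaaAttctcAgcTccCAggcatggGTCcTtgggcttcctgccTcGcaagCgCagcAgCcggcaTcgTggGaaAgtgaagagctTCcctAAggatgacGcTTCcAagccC

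No ribosomal protein gene passed the test between Ad-cKO and WT. By the quasi-likelihood F test of edgeR, with p adjusted over all genes by Benjamini and Hochberg, 0 of 85 members had an adjusted p under 0.05, against 0.0609% of all 14767 genes tested (9 genes, 4 higher and 5 lower). Adcy3 is 1 of the 9. At an unadjusted p under 0.05 there were again 0 members, against 1546 of all genes (10.5%). DESeq2's Wald test also called 0 members, against 1.6% of the 18168 genes it gave an adjusted p. The median member stood at a log2 fold change of 0.08, against 0.01 for all genes tested. Of the members 63 were positive (74.1%) and 22 negative, while 51.7% of all genes tested were positive. The interquartile range of the members lay between -0.00 and 0.18, and 74 of 85 lay within 0.25 of 0, while the median standard error was 0.20. Both subunits had the same median, 0.08 over the 34 small subunit genes and 0.08 over the 51 large subunit genes tested.

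Members with the smallest p among those with a positive fold change included Rpl19, Rpl11, Rpl38 and Rpl28. Rpl19, a large subunit protein, had 251, 150 and 171 CPM in Ad-cKO libraries and 152, 146 and 160 CPM in WT libraries. The log2 fold change of Rpl19 was 0.32 ± 0.19 (SE; edgeR adjusted p = 0.618). Ad-cKO library 1 was the highest of the 6 and the groups overlapped. Rpl11, which with Rpl5 carries the 5S rRNA and binds Mdm2, had 85.1, 44.6 and 65.6 CPM in Ad-cKO libraries and 44.6, 59.2 and 48.2 CPM in WT libraries. Rpl38, known from a mouse mutant in which the translation of Hox mRNAs is altered, had 50.5, 30.3 and 35.2 CPM in Ad-cKO libraries and 33.6, 30.5 and 30.4 CPM in WT libraries. Rpl28 had 92.0, 57.8 and 71.0 CPM in Ad-cKO libraries and 62.2, 64.7 and 56.9 CPM in WT libraries. These 3 also had their highest value in Ad-cKO library 1 and overlapping groups.

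On the negative side the smallest p belonged to Rpl3l, described below, followed by Rpl4, Rps3a1, Rps7 and Rpl22l1. Rpl4, which lines the peptide exit tunnel, had 175, 126 and 125 CPM in Ad-cKO libraries and 172, 154 and 153 CPM in WT libraries (log2 fold change -0.17, edgeR adjusted p = 0.771). Rps3a1, of the small subunit, had 143, 87.7 and 101 CPM in Ad-cKO libraries and 130, 119 and 128 CPM in WT libraries. Rps7, also of the small subunit, had 81.9, 64.0 and 76.2 CPM in Ad-cKO libraries and 77.5, 77.6 and 80.8 CPM in WT libraries. In all 3, libraries 2 and 3 of the Ad-cKO group lay below every WT library while library 1 lay above every one.

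The members differed little among WT libraries and moved together among Ad-cKO libraries. Relative to the mean of the WT libraries on a log2 scale (log2 of CPM plus 0.5), the median member stood at 0.48 in Ad-cKO library 1, -0.28 in library 2 and -0.03 in library 3, and at 0.04, -0.06 and 0.02 in WT libraries 1 to 3. Over all genes tested these medians lay between -0.01 and 0.01 in every library. Ad-cKO library 1 was the highest of the 6 libraries in 78 of 85 members (91.8%), against 28.2% of all genes tested. Ad-cKO library 2 was the lowest in 67 members (78.8%), against 16.6% of all genes. Against the WT libraries alone, library 1 lay above every one in 80 members (94.1%, against 34.3% of all genes) and library 2 below every one in 69 members (81.2%, against 30.1%). Both held at once in 67 members: library 1 lay above and library 2 below every WT library in 78.8% of the members and in 8.38% of all genes. Ad-cKO library 3 lay below every WT library in 30 members (35.3%), close to the 30.8% of all genes. The order is a description of single libraries, with no test, since the members share those libraries.

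**Figure D1:**
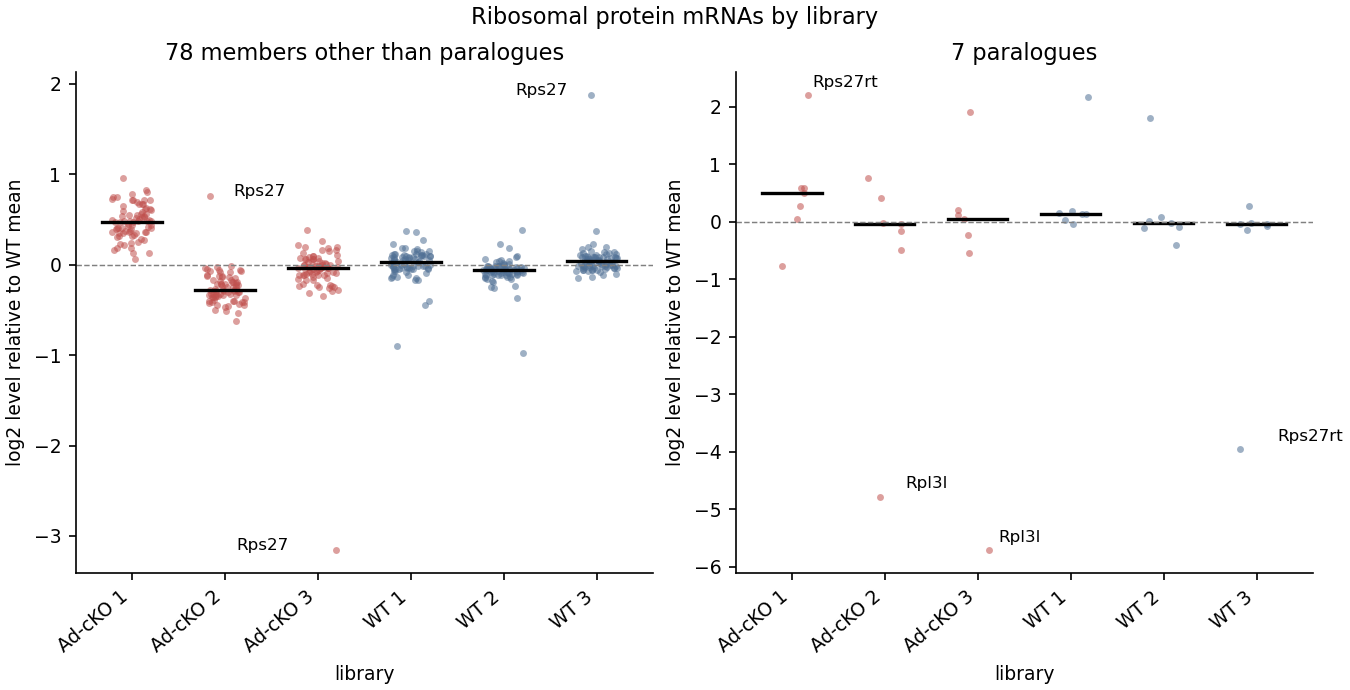
Each point is 1 ribosomal protein gene, placed by its log2 level (CPM plus 0.5) relative to the mean of the WT libraries, for 78 tested members on the left and 7 paralogues on the right; black bars are medians, red marks Ad-cKO and blue marks WT libraries. The cloud of members sits above 0 in Ad-cKO 1 and below 0 in Ad-cKO 2, while Rps27, Rps27rt and Rpl3l leave it.

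The order was seen in both subunits: library 1 lay above and library 2 below every WT library in 30 of 34 small subunit genes (88.2%) and 37 of 51 large subunit genes (72.5%), a difference that was not tested. Ad-cKO library 1 was highest in 33 of 34 small subunit genes and in 45 of 51 large subunit genes, and library 2 lowest in 30 of 34 and 37 of 51. The medians relative to WT were 0.49, -0.28 and -0.04 in Ad-cKO libraries 1 to 3 for the small subunit and 0.45, -0.28 and -0.03 for the large subunit. As a share of all counts the members took 0.863%, 0.531% and 0.606% in Ad-cKO libraries and 0.673%, 0.632% and 0.713% in WT libraries. Their summed level was 9084, 5393 and 6299 CPM in Ad-cKO libraries and 6549, 6255 and 6662 CPM in WT libraries, or 6925 ± 1924 against 6489 ± 210 CPM (SD, n = 3 each). The ratio of the means was 1.07, and 0.901 without Ad-cKO library 1. Among the WT libraries the median coefficient of variation of a member was 7.20%.

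Because 1 library set the sign of the group difference, values without it are given. Without Ad-cKO library 1 the median log2 fold change was -0.15, with 10 members positive and 75 negative, against 0.00 for all genes tested. Rpl3l was then the 1 member called (1 of 85, beside 5.64% of the 15188 genes tested in that fit). Without Ad-cKO library 2 the median was 0.23, with 81 members positive.

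Of the 85 members, 18 did not have library 1 above and library 2 below every WT library. Ad-cKO library 1 did not lie above every WT library in 5 members, which were Rpl3l, Rps27, Rpl5, Rpl10 and Rpl7l1 and were picked out after their values were seen. Ad-cKO library 2 did not lie below every WT library in 16 members, Rpl5, Rpl7l1 and Rps27 again among them. Over the 6 libraries the log2 level of a member correlated with the median of the other members at a median Pearson r of 0.93, above 0.9 in 49 of 85 members and above 0.8 in 70. It was under 0.5 in 6: Rpl7l1 (0.11), Rps27 (0.12), Rpl39l (0.14), Rps27rt (0.21), Rpl5 (0.34) and Rpl3l (0.44). All members share the same 6 libraries, so r describes likeness only. Rpl7l1, not a ribosome component, had 55.5, 52.4 and 61.6 CPM in Ad-cKO libraries and 52.1, 56.6 and 52.1 CPM in WT libraries. Rps19bp1, the other symbol-matched gene that is not structural, had 14.3, 9.05 and 11.3 CPM in Ad-cKO libraries and 9.05, 11.6 and 9.84 CPM in WT libraries, with its highest value in Ad-cKO library 1 and r = 0.77.

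Properties of the RNA moved with the level in Ad-cKO library 1. Ribosomal protein mRNAs had a median length of 771 bases and a GC content of 51.6%, against 2605 bases and 50.3% over all genes tested. Across the 85 members, the log2 level in Ad-cKO library 1 relative to WT had a Spearman rho of -0.42 with transcript length and 0.52 with GC content. In library 2 these were -0.18 and 0.00, and in library 3 -0.12 and 0.01. Across all 14754 genes with a known length, rho with length was -0.49 in library 1, 0.12 in library 2 and -0.08 in library 3. With GC content it was 0.21, -0.11 and -0.06, so in library 1 weaker than across the members. A smooth trend on length and GC fitted over all genes explained 17.9% of the variance of deviations in Ad-cKO library 1 and from 1.14% to 4.34% in the other 5. For the median member that trend amounted to 0.28, -0.20 and -0.13 in Ad-cKO libraries 1 to 3, where the observed deviations from the mean of all 6 libraries were 0.43, -0.29 and -0.05. With that trend removed as an offset, the median log2 fold change of the members was 0.10 and that of all genes 0.15, a shift of all genes beside which the members lay lower. Hemoglobin and other red cell transcripts summed to 1588, 869 and 926 CPM in Ad-cKO libraries and 1323, 722 and 751 CPM in WT libraries. Their sum was highest in Ad-cKO library 1, as for the members, but lowest in WT library 2. The part of length, GC, blood and muscle in the members' order was not tested.

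**Figure D2:**
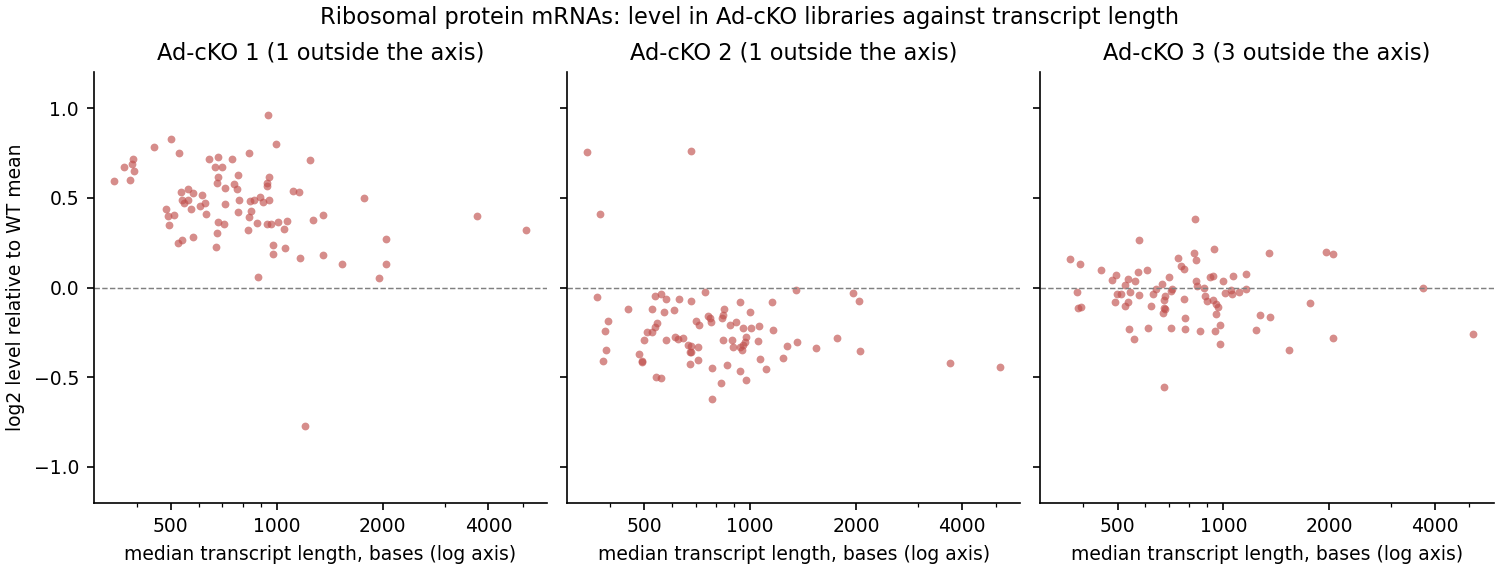
Each point is 1 of the 85 tested members, by median transcript length in bases (horizontal, log axis) and log2 level relative to the WT mean (vertical), in Ad-cKO libraries 1, 2 and 3; 1, 1 and 3 members lie outside the axis. Shorter mRNAs lie higher in library 1 (Spearman rho -0.42), and no such slope is seen in libraries 2 (-0.18) and 3 (-0.12).

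Rpl3l was the member with the largest difference. It takes the place of Rpl3, a large subunit protein near the peptidyl transferase centre, in ribosomes of striated muscle. Rpl3l had 27.4, 1.24 and 0.415 CPM in Ad-cKO libraries and 52.6, 46.7 and 42.8 CPM in WT libraries. Every Ad-cKO library lay below every WT library, the only member of 85 (1.18%) for which this held, against 10.8% of all genes. At -2.30 ± 1.11 (SE), its log2 fold change did not pass (edgeR adjusted p = 0.525). Without Ad-cKO library 1 it passed, at -5.86 (edgeR adjusted p = 6.41e-06). It also passed in a fit without the filter on low counts, as the 1 member called beside 2.8% of 31870 genes (log2 fold change -2.29, edgeR adjusted p = 2.12e-31). That fold change was nearly the one of the main fit, so the p depended on the filter. Rpl3l did not pass by DESeq2's Wald test (adjusted p = 0.776) or with a length and GC offset (edgeR adjusted p = 0.182).

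The summed level of the muscle markers had the same order of libraries as Rpl3l. Single markers did not all share it: Myh1 had 570, 697 and 961 CPM in WT libraries 1 to 3. All 25 markers had a negative log2 fold change, beside 48.3% of all genes tested, with a median of -2.16. With all libraries 0 of them were called. Without Ad-cKO library 1 all 25 were called lower, beside 5.35% of all genes in that fit. Acta1, skeletal muscle actin, had 1790, 91.4 and 5.34 CPM in Ad-cKO libraries and 3020, 2816 and 2520 CPM in WT libraries. With the log2 summed marker level as a covariate, the log2 fold change of Rpl3l was 0.09 (edgeR adjusted p = 0.874). The same covariate put the median member at 0.45, with 84 of 85 positive and 0 called. The marker sum was 10947, 798 and 145 CPM in Ad-cKO libraries and 23196, 21155 and 16961 CPM in WT libraries. Genotype and marker level thus largely overlap, and only Ad-cKO library 1 came near the WT libraries. Neither covariate value can be read as a genotype effect freed of muscle.

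**Figure D3:**
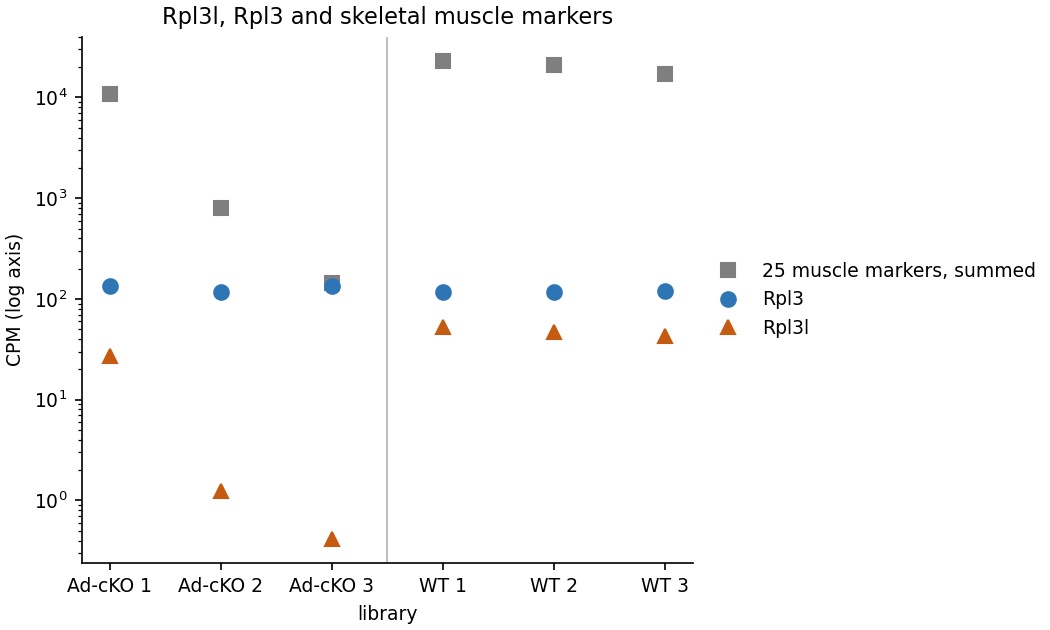
Levels in CPM on a log axis for the sum of 25 skeletal muscle markers (squares), Rpl3 (circles) and Rpl3l (triangles) in each Ad-cKO and WT library. Rpl3l runs with the muscle markers down to 0.415 CPM in Ad-cKO 3, while Rpl3 stays between 117 and 135 CPM.

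Rpl3, the form used in most tissues, had 134, 117 and 135 CPM in Ad-cKO libraries and 118, 117 and 119 CPM in WT libraries. Rpl3l made up 17.0%, 1.05% and 0.306% of the summed Rpl3l and Rpl3 counts in Ad-cKO libraries, and 30.8%, 28.5% and 26.5% in WT libraries. The groups did not overlap, with means of 6.13% ± 9.45 in Ad-cKO and 28.6% ± 2.16 in WT (SD, n = 3 each). The exact two-sided permutation p was 0.1, the smallest that 3 against 3 can give, and 0.7 after adjustment over the 7 paralogue pairs tested. Per kilobase of coding sequence, Rpl3l averaged 7.92 CPM in Ad-cKO and 38.7 CPM in WT, against 106 and 97.3 CPM for Rpl3.

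The other paralogue shares did not separate the groups (exact two-sided permutation adjusted p = 0.8 for each of the other 6 pairs). Among them, Rps27rt and Rps27l were each compared with the Rps27 row, which shares its coding sequence with Rps27rt. Those shares depend on how reads were divided between rows and cannot show paralogue use. Rpl22l1, which in mice is held down by its paralogue Rpl22, made up 23.8%, 21.8% and 24.4% of the pair in Ad-cKO libraries and 24.6%, 23.1% and 23.6% in WT libraries. Rpl36al, a paralogue of the X-linked Rpl36a, was the more abundant of its pair, at 74.0%, 75.2% and 73.3% in Ad-cKO libraries and 71.2%, 75.6% and 69.4% in WT libraries. The sums of both pairs were highest in Ad-cKO library 1 and lowest in Ad-cKO library 2. Rpl7l1 made up 33.0% ± 2.81 of its pair with Rpl7 in Ad-cKO and 31.5% ± 2.22 in WT (SD, n = 3 each). Rpl39l, whose coding sequence is 85.3% identical to that of Rpl39, made up 8.90% ± 4.73 in Ad-cKO and 6.91% ± 1.72 in WT (SD, n = 3 each). Its own level was 3.45, 3.97 and 1.30 CPM in Ad-cKO libraries and 2.41, 1.49 and 2.68 CPM in WT libraries. Rpl10l, the autosomal relative of X-linked Rpl10, had 0 counts in all 6 libraries, where 3 counts would correspond to 0.172 to 0.203 CPM.

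Rps27, a zinc-binding protein of the small subunit, was split unevenly with Rps27rt from library to library. The Rps27 row held 14.2, 15.9 and 0.593 CPM in Ad-cKO libraries and 4.70, 4.46 and 35.2 CPM in WT libraries. The Rps27rt row held 35.2, 9.83 and 28.6 CPM in Ad-cKO libraries and 34.3, 26.4 and 0 CPM in WT libraries. In Ad-cKO library 3 nearly all of the pair lay in the Rps27rt row, and in WT library 3 all of it lay in the Rps27 row. Their sum was 49.4, 25.8 and 29.2 CPM in Ad-cKO libraries and 39.0, 30.9 and 35.2 CPM in WT libraries and was thus highest in Ad-cKO library 1 and lowest in Ad-cKO library 2. The sum averaged 34.8 ± 12.8 CPM in Ad-cKO and 35.0 ± 4.05 CPM in WT (SD, n = 3 each). The log2 fold changes of the single rows were -0.53 ± 1.05 for Rps27 and 0.27 ± 1.10 for Rps27rt (SE). Since the coding sequence is shared, how reads were divided between the rows is uncertain, and its part in these values was not tested. Rps27l, a p53 target that differs from Rps27 at 61 of 255 coding positions, had 54.9, 37.7 and 40.2 CPM in Ad-cKO libraries and 42.7, 35.9 and 38.5 CPM in WT libraries.

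The first 150 coding bases of that pair, with the 35 differing positions in capitals, are given for contrast.
Rps27l: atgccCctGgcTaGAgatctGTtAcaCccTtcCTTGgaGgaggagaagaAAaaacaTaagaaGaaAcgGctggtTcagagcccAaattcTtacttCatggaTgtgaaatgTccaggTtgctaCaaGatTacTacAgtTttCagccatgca
Rps27: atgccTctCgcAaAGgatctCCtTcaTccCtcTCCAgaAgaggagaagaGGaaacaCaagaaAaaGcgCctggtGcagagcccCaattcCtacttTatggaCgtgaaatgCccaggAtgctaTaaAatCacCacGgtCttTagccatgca

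Rps27 was not alone. Coding sequences of the members were aligned to the annotated transcripts of all genes with a row. A copy had to match at 99% identity or more over at least 90% of a member's coding sequence. The matched stretch also had to make up at least 50% of the copy's transcript. These conditions held for 123 rows outside the members. Of these copies, 59 had 0 counts in all libraries and 27 averaged above 1 CPM, for 26 members. In 7 cases the copy's row stood above its parent's. Rpl5, the partner of Rpl11 on the 5S rRNA, averaged 8.17 CPM over the 6 libraries, whereas Gm15500, an intronless copy on chromosome 7 (114705217 to 114706235, minus strand) identical to it over the coding sequence, averaged 90.1 CPM. Rpl12, a protein at the base of the stalk, averaged 5.05 CPM against 53.6 CPM for Gm10275 on chromosome 10 (29698746 to 29699380, minus strand). Rpl10, which joins late in large subunit assembly, averaged 38.2 CPM against 78.3 CPM for Rpl10-ps3 on chromosome 9 (50344201 to 50344968, minus strand). Rpl11 averaged 57.9 CPM against 77.6 CPM for Gm10288, and Rpl35, Rps23 and Rpl27a lay below Gm2000, Rps23-ps1 and Gm7536 in the same way. The deposited values do not show which gene these reads came from.

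Rpl10 alone had 46.6, 25.6 and 42.7 CPM in Ad-cKO libraries and 28.0, 38.2 and 48.2 CPM in WT libraries, while Rpl10 and Rpl10-ps3 together averaged 117 ± 15.7 CPM in Ad-cKO and 116 ± 9.37 CPM in WT (SD, n = 3 each). Rpl5 and Gm15500 together averaged 95.3 ± 15.1 CPM in Ad-cKO and 101 ± 11.4 CPM in WT. Gm10275, the copy of Rpl12, had 69.2, 39.8 and 47.2 CPM in Ad-cKO libraries and 57.6, 51.5 and 56.3 CPM in WT libraries, with its highest and lowest values in Ad-cKO libraries 1 and 2. In a fit with every member summed with its copies, an alternative chosen after seeing the data, 0 of 84 members were called and the median log2 fold change was again 0.08. Some copies were listed in a few libraries only: Gm9385, a copy of Rpl24, had 15.5 CPM in Ad-cKO library 1 and 0 in the other 5. Gm12918, a copy of Rpl13, had 21.6, 5.99 and 0 CPM in Ad-cKO libraries and 0, 12.8 and 19.7 CPM in WT libraries. The copies together summed to 927, 559 and 588 CPM in Ad-cKO libraries and 669, 622 and 700 CPM in WT libraries, with the highest and lowest values in the same libraries as the members.

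**Figure D4:**
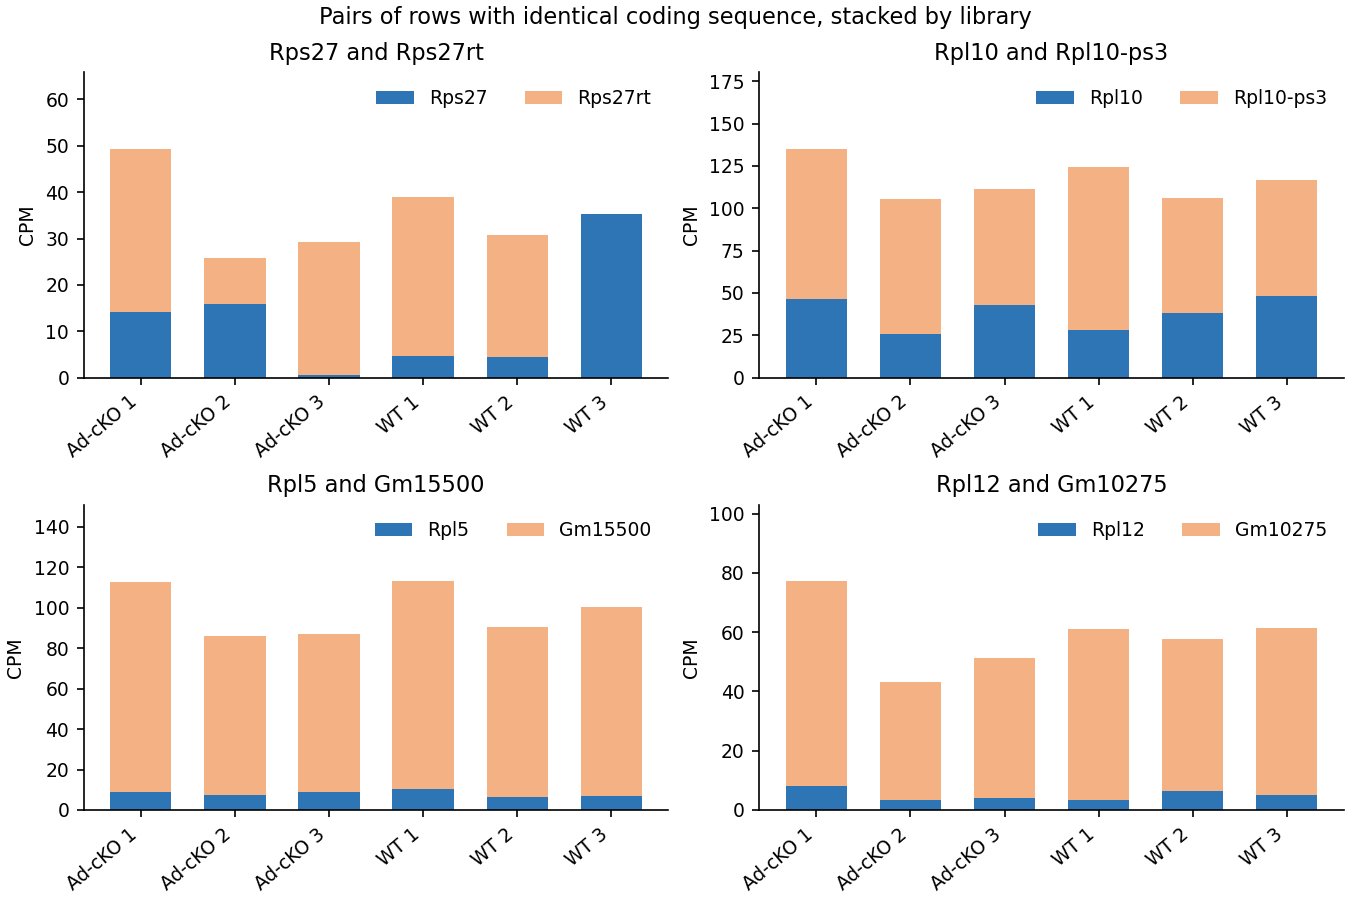
Stacked CPM by library for 4 pairs of rows that share 1 coding sequence, the member in blue and its copy in orange, Ad-cKO libraries left of WT libraries. The division between Rps27 and Rps27rt changes from library to library (0 CPM for Rps27rt in WT 3) while the stack heights stay between 25.8 and 49.4 CPM.

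Levels were compared between genes per kilobase of coding sequence, averaged over the 6 libraries. For the spread, Rps27, Rps19bp1 and the paralogues of the pairs above were left out. Among the other 76 members the interquartile range lay between 117 and 196 CPM per coding kilobase, a ratio of 1.67. The lowest single rows were Rpl5 (9.14) and Rpl12 (10.1). With copies added, these became 110 and 118 CPM per coding kilobase, the lowest of the 76 was then 79.7, and the quartile ratio was 1.48. Rpl39l, at 16.3 CPM per coding kilobase, was the third lowest of the tested rows, and no copy was added to it. The 5 highest were Rpl41, Rps2, Rplp1, Rps29 and Rplp2. Rpl41, at 1673 ± 477 CPM per coding kilobase (SD over 6 libraries), encodes the smallest ribosomal protein from 78 coding bases, so reads from its untranslated ends weigh heavily on this scale. Rps2 stood at 438 ± 123, Rplp1 at 420 ± 132 and Rplp2 at 339 ± 91.7 CPM per coding kilobase. Rplp1 and Rplp2 are the acidic stalk proteins, present in more than 1 copy per ribosome. Rps29 stood at 340 ± 92.0. Ad-cKO library 1 was highest in these 4 genes. Rps2 and Rplp1 each lay above Rps29 and Rplp2 in 6 of 6 libraries. Rps2 lay above Rplp1 in 5 of 6, and Rps29 above Rplp2 in 3 of 6.

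**Figure D5:**
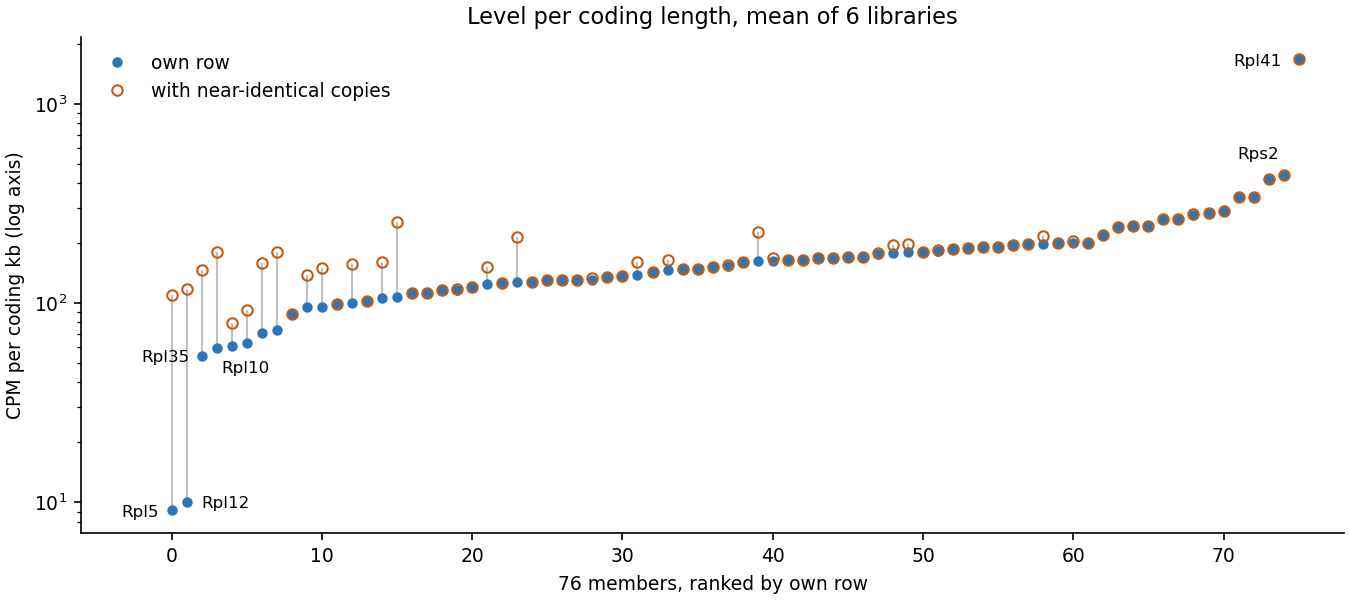
Mean CPM per coding kilobase over 6 libraries (log axis) for 76 members ranked by their own row, as the row alone (filled) and with its near-identical copies added (open). Adding copies lifts Rpl5 from 9.14 to 110 and Rpl12 from 10.1 to 118, and leaves most members in place.

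In every one of these 5 genes Ad-cKO library 1 was the highest. Rps2 had 605, 316 and 356 CPM in Ad-cKO libraries and 321, 356 and 366 CPM in WT libraries. Rplp1 had 235, 108 and 129 CPM in Ad-cKO libraries and 126, 131 and 140 CPM in WT libraries, and Rpl41 had 204, 102 and 113 CPM in Ad-cKO libraries and 122, 115 and 127 CPM in WT libraries. None was called (edgeR adjusted p from 0.682 for Rplp2 to 0.831 for Rpl41).

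Promoter windows of the members, from RefSeq on GRCm38.p6, were searched for short elements known from genes of this kind. RefSeq windows were found for 66 of the 86 members, 78 windows in all, each from 250 bases before to 50 bases after the annotated start. A pyrimidine run (a C followed by at least 7 C or T on the gene's strand, within 25 bases of the start), the form of a terminal oligopyrimidine tract, was in 43.6% of member windows and 15.5% of all 32851 windows. CCGGAAG, the core of ETS family sites, was on either strand in 34.6% of member windows and 8.86% of all. AAGATGG, the core of YY1 sites, was in 15.4% and 6.34%, and TATAAA in 8.97% and 13.6%. A match is a string of letters and not a bound site. The windows from 60 bases before to 20 bases after the start are given for the member with the smallest p among positive fold changes (Rpl19), a small subunit member with Ad-cKO library 1 above and library 2 below every WT library (Rps7), the pair with one coding sequence, and the paralogues of muscle and testis, with these strings in capitals wherever they fall in the stretch.
Rpl19, plus strand, chr11:98026650-98026729: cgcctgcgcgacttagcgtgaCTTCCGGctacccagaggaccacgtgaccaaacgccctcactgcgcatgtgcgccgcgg
Rps7, minus strand, chr12:28635934-28636013: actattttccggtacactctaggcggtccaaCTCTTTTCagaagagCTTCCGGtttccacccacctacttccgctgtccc
Rps27, minus strand, chr3:90213629-90213708: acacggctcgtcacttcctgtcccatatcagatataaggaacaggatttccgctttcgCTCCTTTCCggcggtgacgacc
Rps27rt, minus strand, chr9:114982720-114982799: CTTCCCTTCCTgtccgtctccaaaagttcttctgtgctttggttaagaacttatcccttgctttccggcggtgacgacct
Rpl39l, plus strand, chr16:10170168-10170247: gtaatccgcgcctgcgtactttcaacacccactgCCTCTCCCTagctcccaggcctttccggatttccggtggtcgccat
Rpl3l, plus strand, chr17:24727766-24727845: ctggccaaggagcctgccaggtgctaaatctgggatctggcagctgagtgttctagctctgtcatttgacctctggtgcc
None of these strings occurs in the Rpl3l stretch shown. The Rpl19 stretch shown holds no pyrimidine run, but a further Rpl19 window (chr11:98026864-98026943), not shown, holds one just before its start. The windows of Rps27 and Rps27rt share a run of 19 bases at the start of the transcript, and differ upstream of it.

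Genes that work with the ribosomal proteins were read from the same fit, from lists chosen by function. Fau, a fusion that yields ribosomal protein S30 and whose name falls outside the symbol rule, had 98.4, 53.4 and 67.8 CPM in Ad-cKO libraries and 63.5, 66.3 and 57.6 CPM in WT libraries. Rack1, a small subunit scaffold protein, had 136, 85.9 and 99.8 CPM in Ad-cKO libraries and 112, 100 and 117 CPM in WT libraries. In both genes Ad-cKO library 1 was the highest and library 2 the lowest, and neither was called (edgeR adjusted p = 0.766 for Fau and 0.972 for Rack1).

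Of 19 translation factors and other mRNAs known to carry an oligopyrimidine tract, 0 were called, 10 were positive and 9 negative, with a median log2 fold change of 0.01. Their medians in Ad-cKO libraries 1 to 3 relative to WT were 0.22, -0.10 and -0.06. Eef1a1, elongation factor 1A, had 1629, 1475 and 1541 CPM in Ad-cKO libraries and 1369, 1346 and 1368 CPM in WT libraries. Its groups did not overlap, as in 7.63% of all genes in that direction, and it did not pass (log2 fold change 0.19, edgeR adjusted p = 0.573). Without Ad-cKO library 1, Eef1g, a subunit of elongation factor 1, was the 1 gene of the list called, at a log2 fold change of -0.48 (edgeR adjusted p = 0.0221, beside 5.35% of all genes called lower). Of 24 initiation factors 0 were called, with 20 positive (beside 51.7% of all genes tested) and a median of 0.08. Eif4a2, an RNA helicase of initiation, had 393, 350 and 323 CPM in Ad-cKO libraries and 257, 240 and 222 CPM in WT libraries (log2 fold change 0.56, edgeR adjusted p = 0.197), again without overlap. It was called higher without Ad-cKO library 1 (log2 fold change 0.49, edgeR adjusted p = 0.0337, beside 0.296% of all genes called higher).

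Of 48 ribosome biogenesis genes 0 were called and 32 were positive, beside 51.7% of all genes tested. Their median was 0.05, with medians of 0.13, -0.02 and 0.04 in Ad-cKO libraries 1 to 3. Rrp12, an assembly and export factor, had 14.7, 14.4 and 15.3 CPM in Ad-cKO libraries and 18.8, 20.0 and 18.9 CPM in WT libraries (log2 fold change -0.38, edgeR adjusted p = 0.333). Polr1a, the largest subunit of RNA polymerase I, had 13.7, 18.7 and 19.4 CPM in Ad-cKO libraries and 22.5, 23.4 and 24.3 CPM in WT libraries (log2 fold change -0.44, edgeR adjusted p = 0.40). Neither pair of groups overlapped, as in 10.8% of all genes in that direction. Bysl, also of the list, went the other way. It had 29.8, 26.4 and 30.9 CPM in Ad-cKO libraries and 22.7, 25.3 and 25.8 CPM in WT libraries (log2 fold change 0.24, edgeR adjusted p = 0.566). Its groups did not overlap either, as in 7.63% of all genes in that direction. Of 25 regulators of ribosomal protein synthesis 0 were called, 13 were positive and the median was 0.01. Larp1, which binds the oligopyrimidine tract, had 106, 98.6 and 94.4 CPM in Ad-cKO libraries and 101, 100 and 99.9 CPM in WT libraries. Eif4ebp1, an mTOR target that blocks initiation, had 150, 102 and 109 CPM in Ad-cKO libraries and 84.7, 99.3 and 108 CPM in WT libraries, with overlapping groups and no call.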

How the data were processed

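Polyadenylated RNA from 6 interscapular brown fat libraries (3 Ad-cKO, 3 WT) was read from 1 table of estimated counts per gene deposited by the authors, without normalization; StringTie, Salmon, edgeR and build GRCm38 are named in the submitters' processing notes, and no source used here gives versions or settings. Counts were rounded and tested with edgeR 4.0.16 in R 4.3.3 (filterByExpr with a minimum count of 10 and minimum total of 15, TMM, quasi-likelihood F test, genotype only, Benjamini-Hochberg over 14767 genes, threshold 0.05). Fold changes are Ad-cKO over WT on the log2 scale; standard errors come from the F statistic. The procedure was run on simulated counts with the same spread setting for every gene and no deviating library. These data differ from that setting, so the run does not bear on their spread. Symbols, positions, coding sequences, transcript length and GC (median over basic transcripts) came from GENCODE vM21; copies were found with blastn 2.17.0. Level per length used coding bases. Shares of paralogue pairs were compared with exact two-sided permutation tests over libraries. DESeq2 1.42.0 was an alternative, with others given under the dependence on processing.

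Members, lists, pairs and tests were chosen with earlier results of these data known. Genes named were those called, the 5 smallest p in each direction, the paralogue pairs, the extremes of level per length, untested and non-structural members, Fau and Rack1, and up to 3 genes per list; some genes under this rule are not reported here. Other marker lists served to check the tissue: 0 genes were called in each of the endothelial, erythroid, fibroblast, lymphocyte, macrophage and white adipocyte lists, with medians of 0.08, 0.26, -0.68, -0.46, -0.37 and -0.72. The lymphocyte median rested on 2 tested genes of 10 listed, Cd4 (-1.17) and Cd79a (0.25). Without Ad-cKO library 1, 7 of 9 fibroblast, 3 of 10 macrophage and 2 of 7 white adipocyte markers tested were called lower (5.35% of all genes), and Ucp1 was called higher. Libraries of 1 group differed by more than sampling noise (chi-square per degree of freedom of 11.9 or more), so each counted once. The labels number the replicates and do not say whether each is 1 mouse, so a p-value reflects only how these samples vary. Floors cover counting error only. Depot and replicate number follow the sample labels, from which the design text differs.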

Additional observations from a re-analysis of the deposited data

How the results depend on the processing

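With RLE or upper-quartile factors, mitochondrially encoded genes left out of scaling, the length and GC offset and either way of summing copies, 0 members were called and the median member stayed between 0.08 and 0.10. Without the low-count filter 893 genes and 1 member, Rpl3l (-2.29, adjusted p = 2.12e-31), were called; DESeq2 called 290 genes and 0 members. With the muscle marker covariate 24 genes and 0 members were called, the median was 0.45 and Rpl3l stood at 0.09. That covariate overlaps with genotype, so these values are not a genotype effect freed of muscle. Leaving out each library gave 4 to 857 called genes, 0 to 1 members, a median of -0.15 to 0.23, Rpl3l at -5.86 to -1.73 and a ratio of summed levels of 0.901 to 1.19; the high counts and Rpl3l's call came without Ad-cKO library 1. The Rpl3l share differed by -27.9 to -19.6 percentage points.

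The replicate number as a block was not backed by the samples, since deviations of same-numbered libraries correlated at 0.07, 0.11 and 0.05. With this block 4 genes and 0 members were called, the median was 0.05, Rpl3l stood at -3.89 (adjusted p = 0.293), Rpl10 at -0.01 and Rps27 at 0.07.

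Of 463 values of single named genes under alternatives, 44 changed sign, none of them past the threshold on either side; the cause was not tested. With the length and GC offset Rpl36a stood at -0.01. With the muscle covariate Rpl22 (0.29), Rpl22l1 (0.25), Rpl4 (0.16), Rpl7 (0.13), Rps27 (0.65), Rps3a1 (0.17) and Rps7 (0.00) were no longer negative and Rpl7l1 stood at -0.01. Summed with copies, Rpl36a stood at -0.02 in both ways, Rpl12 at -0.07 and Rpl5 at -0.09. Leaving out single libraries gave ranges across 0 for Rpl10 (-0.19 to 0.23), Rpl12 (-0.39 to 0.30), Rpl22 (-0.32 to 0.02), Rpl22l1 (-0.38 to 0.03), Rpl36a (-0.16 to 0.25), Rpl36al (-0.01 to 0.37), Rpl39 (-0.25 to 0.19), Rpl41 (-0.17 to 0.39), Rpl5 (-0.08 to 0.28), Rpl7 (-0.12 to 0.08), Rplp1 (-0.16 to 0.46), Rplp2 (-0.01 to 0.48), Rps2 (-0.05 to 0.47), Rps27 (-1.01 to 1.12), Rps27l (-0.00 to 0.28), Rps27rt (-0.35 to 0.85), Rps29 (-0.09 to 0.46) and Rps7 (-0.16 to 0.01). Depth leaves rows under a few CPM, such as Rpl39l, imprecise.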
